A study of Mus musculus with 12 samples.

Results

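Control cells of 2 kinds from day 2 were compared with each other: the DMSO libraries and the EV libraries of mouse primordial germ cell-like cells (PGCLCs). The comparison took 4 of the 12 libraries, 2 per group, and 11610 autosomal genes of the 12955 in the table, namely those with an FPKM (fragments counted per transcript length and sequencing depth) of 1 or more in at least 2 of the 12 libraries. All cells derived from male J1 embryonic stem cells and were sorted from embryoid bodies for CD61 and SSEA1, surface markers of germ cell-like cells, and poly(A) RNA was sequenced. The EV libraries came from day 2 embryoid bodies with no treatment named. The DMSO libraries carried DMSO for 2 days, the solvent control of dTAG13, a degrader compound acting on proteins that carry its matching tag. The other groups were OE at day 2, dTAG13 for 2 days at day 2, and EV and OE at day 6, again 2 libraries each. The series is about Tex10, and what the abbreviations EV and OE stand for is not written out there. Beyond strain and sex, the genetic makeup of each line, the promoter of any added gene and the number of clones were not given in the sources used here. Cell line, culture and solvent all differ between DMSO and EV and cannot be told apart. Nothing says whether the libraries of a group came from separate cultures, so p-values measure only the spread between these libraries, which may be technical.

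PGCLCs are made by releasing pluripotent cells into an aggregate with BMP4, where a fraction of cells switches on Prdm1, Prdm14 and Tfap2c, the regulators that start the germ cell programme. Early germ cells erase DNA methylation, including that at imprinted genes, where only the copy from one parent is normally active. Cultured embryonic stem cells are known to vary from line to line in imprinted expression and in the copy number of chromosome parts.

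Values below are FPKM, and differences are DMSO minus EV on the scale of log2(FPKM + 1), which understates the change of low genes. A gene was called where limma, fitted across all 12 libraries, gave an adjusted p (Benjamini-Hochberg) below 0.05. Of 11610 genes, 39 were called (0.336%), 30 higher with DMSO (0.258%) and 9 lower (0.0775%), while 1031 had an unadjusted p below 0.05. The median gene stood at 0.03, and the 5th and 95th percentiles lay at -0.41 and 0.57. At an absolute difference of 1 or more stood 140 genes, 111 of them higher with DMSO, and 22 of the 140 were called. The spread that the test used came partly from the first dTAG13 library, in which 15.5% of genes were listed at 0 against 0.139% to 0.980% elsewhere. Without that library 629 genes were higher with DMSO (5.42%) and 304 lower (2.62%), and these included all 39. With the 8 day 2 libraries alone 3 genes were called, and with any 1 DMSO or EV library left out 2 to 7 were, so most calls below did not hold in fits with fewer DMSO or EV libraries. The median absolute difference between 2 libraries was 0.17 within EV, 0.12 within DMSO and 0.19 to 0.22 across the groups.

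Mest, an imprinted gene expressed from the paternal copy and long used as a marker of mesoderm, showed the greatest difference of any called gene. It spans chr6:30723547-30748465 on the plus strand (GRCm38, the build of mm10). Mest read 0.639 and 0.992 FPKM in the DMSO libraries and 58.6 and 51.6 in the EV libraries. It fell by 4.95 on the log2 scale (SE 0.39, adjusted p = 0.000403, limma, n = 2 per group), a ratio of 67.6 between the group means in FPKM. The dTAG13 libraries were low as well, at 3.71 and 0.721, and the day 2 OE libraries high, at 58.5 and 49.2. Day 6 EV libraries had 22.0 and 33.7 for Mest, and day 6 OE libraries 16.8 and 16.3. All 4 DMSO and dTAG13 libraries thus lay below all 8 EV and OE libraries, with no overlap.

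The genes around Mest did not share its low reading at that size. Copg2, whose gene on the minus strand overlaps the end of Mest, read 17.0 and 16.5 with DMSO and 18.6 and 19.2 in EV (adjusted p = 0.795). Reads from the overlap cannot be assigned without strand, and whether the counting used strand was not given in the sources used here. Upstream, Klhdc10, Tmem209 and Cep41 stood between -0.27 and 0.07, and Mkln1, Podxl and Chchd3 downstream stood between 0.00 and 0.20. None of these was called. Mest starts at more than one promoter, and 2 of the 3 start windows that RefSeq (GRCm38.p6) lists for it are shown because imprinting acts through CG methylation at such starts. Each window runs from 250 bases before to 50 bases after a start, at chr6:30733256-30733555 and chr6:30737800-30738099, plus strand, with the CG pairs in capitals.
Mest upstream start: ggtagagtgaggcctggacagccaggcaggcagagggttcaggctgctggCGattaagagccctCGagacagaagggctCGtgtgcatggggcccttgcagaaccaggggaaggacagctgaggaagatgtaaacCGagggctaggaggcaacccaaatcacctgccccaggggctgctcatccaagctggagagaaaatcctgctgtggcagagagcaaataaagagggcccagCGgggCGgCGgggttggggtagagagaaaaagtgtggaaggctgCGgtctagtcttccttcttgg
Mest downstream start: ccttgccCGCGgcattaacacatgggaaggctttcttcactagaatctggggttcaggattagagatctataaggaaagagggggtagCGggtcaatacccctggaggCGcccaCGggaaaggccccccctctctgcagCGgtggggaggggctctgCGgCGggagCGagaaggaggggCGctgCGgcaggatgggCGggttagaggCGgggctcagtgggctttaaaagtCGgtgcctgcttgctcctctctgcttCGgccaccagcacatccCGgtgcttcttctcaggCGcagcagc
The upstream window held 8 CG pairs and the downstream window 17, against a median of 7 over all 32851 windows of the same length. As many or more were found in 48.6% and 31.4% of those windows. DNA methylation was not measured, and gene-level FPKM does not tell which start was used.

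Other imprinted genes were tested alongside. Of 31 tested members of the imprinted list, Mest was the 1 called and the list median was -0.08, against 0.03 for all genes. Both DMSO libraries lay below both EV libraries for 12 members and above them for 6, where over all genes 22.6% lay below in this way and 29.7% above. A cluster on chromosome 7 (59272737 to 63212569) was lower as a block of 7 neighbouring genes with a median of -0.74, and none was called. Snrpn, a paternally expressed splicing factor gene at its centre, read 75.5 and 79.5 with DMSO and 176 and 203 in EV. Its difference was -1.27 (SE 0.26, adjusted p = 0.101), or adjusted p = 0.000197 without the first dTAG13 library. Snhg14, the long noncoding transcript that runs on from Snrpn and shares sequence with it, read 1.89 and 2.02 against 4.32 and 9.55. The groups did not overlap in either transcript, and reads of overlapping transcripts here may be divided between them.

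The remaining genes of that block were lower in level. Ndn, a paternally expressed growth regulator, read 4.84 and 3.54 with DMSO and 7.73 and 7.80 in EV. Mkrn3 read 2.95 and 2.60 against 5.25 and 4.44, and Peg12 0.348 and 0.511 against 1.02 and 1.80. Chrna7, a receptor subunit gene, read 1.18 and 0.975 against 1.46 and 1.72, while C230091D08Rik overlapped between the groups. The median deviation of the block from the mean of all 12 libraries was 0.01 and 0.42 in day 2 EV, -0.26 and -0.34 with DMSO, -0.62 and -0.53 with dTAG13, -0.25 and -0.18 in day 2 OE and 0.48 to 0.57 at day 6. The DMSO and dTAG13 libraries were thus the lowest 4, as for Mest. Unlike for Mest, day 2 OE lay just above DMSO and below day 2 EV.

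Imprinted genes away from that block were picked after their values were seen. Nnat, a small membrane protein gene, read 4.26 and 4.62 with DMSO and 8.76 and 9.57 in EV (-0.90, adjusted p = 0.105). Gnas, the gene of a stimulatory G protein subunit, read 18.4 and 19.7 against 28.9 and 29.6 (-0.59, adjusted p = 0.373). Grb10, a growth factor receptor adaptor, went the other way at 14.0 and 14.1 against 4.97 and 5.60 (1.26, adjusted p = 0.0937). Without the first dTAG13 library 2 of the 31 tested imprinted genes were called higher and 6 lower, where 5.42% and 2.62% of all genes were.

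**Figure D1:**
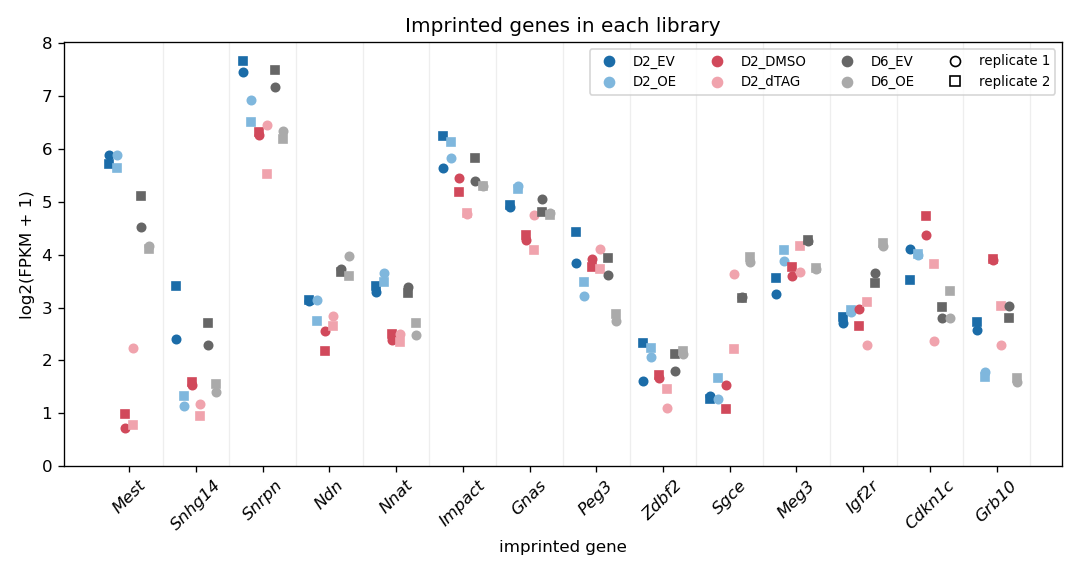
Levels of 14 imprinted genes in all 12 libraries, as log2(FPKM + 1) on the vertical axis, with groups by colour and replicates by marker shape. Mest sits below 3 in the DMSO and dTAG13 libraries and above 4 in the others, whereas Snrpn and Nnat differ by less and with less separation.

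Txnip, an inhibitor of thioredoxin and of glucose uptake, had the largest rise among called genes at a mean of 5 FPKM or more. It lies at chr3:96557957-96561883 on the plus strand. Txnip read 50.7 and 38.1 FPKM with DMSO and 13.2 and 11.6 in EV, and rose by 1.75 (SE 0.15, adjusted p = 0.000907). It read 22.6 and 23.1 in day 2 OE and 128 and 115 with dTAG13. Day 6 libraries stood at 54.9 and 46.4 in EV and 122 and 127 in OE, so Txnip varied with day and group across the series. Mest and Txnip were the genes called in all 4 fits that each left out 1 DMSO or EV library.

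Tex10, the gene under study in the series, whose protein takes part in ribosome assembly, was lower with DMSO. It lies at chr4:48430858-48473459 on the minus strand and read 61.7 and 56.8 with DMSO and 119 and 145 in EV. Tex10 fell by 1.13 (SE 0.15, adjusted p = 0.0104), a ratio of 2.22 between the means. It was the 1 called member of both lists that hold it, 19 germ cell specification genes and 9 genes of Tex10 and its partners. Partners in the same complex were not called: Wdr18 read 180 and 170 against 186 and 187, and Senp3 108 and 99.4 against 118 and 129. The median of the partner list was -0.10.

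The other genes that fell were of varied function. Klk8, a secreted serine protease, read 3.18 and 3.23 against 12.2 and 11.3 and fell by 1.60 (SE 0.20, adjusted p = 0.0104). Hmgxb4, a chromatin protein, read 20.8 and 19.1 against 42.8 and 56.6 (-1.27, adjusted p = 0.0461). Gdf1, a TGF-beta family ligand, read 11.9 and 12.6 against 25.9 and 24.3 (-0.98, adjusted p = 0.0332). It shares a transcript with Cers1, so its reads may not be its own. Dnmt3b, the de novo DNA methyltransferase of the epiblast, read 40.3 and 45.1 against 79.9 and 72.4 and fell by 0.82 (adjusted p = 0.0254). Dnmt3b was the 1 called gene among 15 DNA methylation genes (median -0.04) and among 8 formative and primed genes (median -0.13). Its relatives were not called and overlapped between the groups, Dnmt1 at 137 and 134 against 144 and 136 and Dnmt3l at 47.9 and 49.7 against 51.3 and 40.1. Aprt, an adenine salvage enzyme, read 360 and 340 against 542 and 514 (-0.59, adjusted p = 0.0132), and the pseudogene Pisd-ps1, which has near copies, 23.7 and 20.8 against 36.5 and 40.7 (-0.77, adjusted p = 0.0332).

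Cd200r2, a cell surface receptor gene of low level, was highest in EV. It read 1.39 and 2.31 in day 2 EV and 2.23 and 1.58 in day 6 EV. With DMSO it read 0.0352 and was listed at 0, and no OE or dTAG13 library exceeded 0.143. It was called at -1.47 (SE 0.19, adjusted p = 0.0108).

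**Figure D2:**
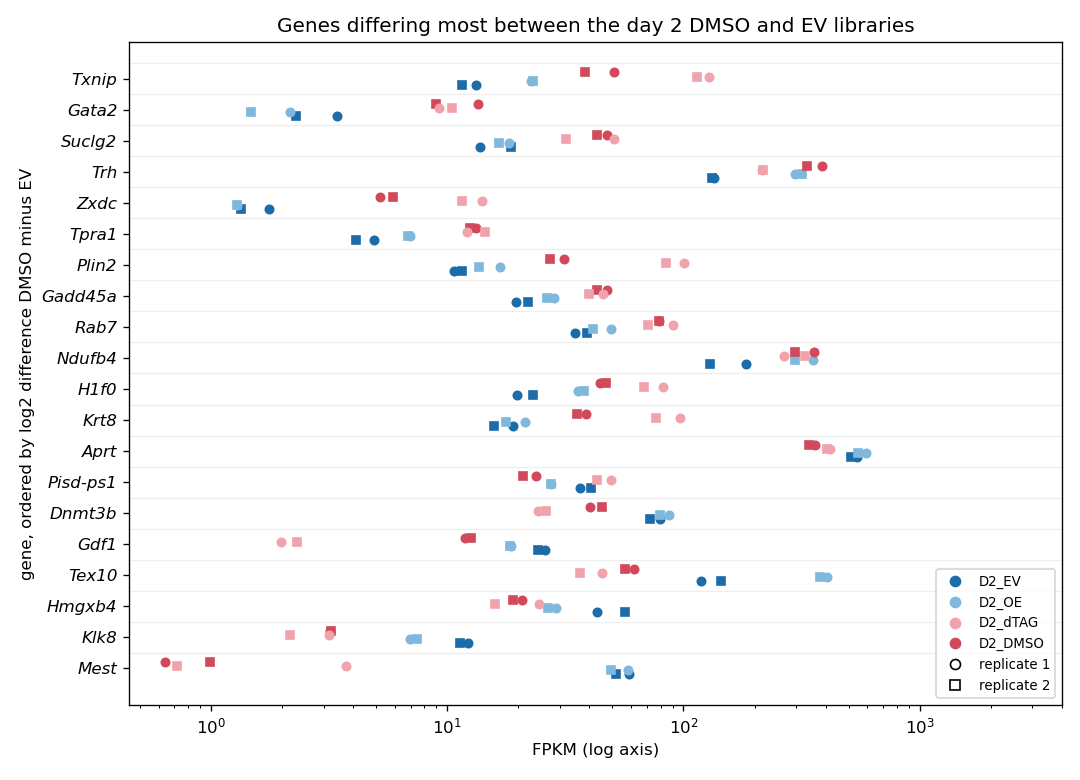
FPKM of the 20 genes named by size of difference in the 8 day 2 libraries, on a log axis, ordered by the log2 difference of DMSO over EV, with groups by colour and replicates by marker shape. DMSO and EV points do not overlap for any of these genes, which follows from the rule that chose them, and for genes such as Mest, Zxdc and Krt8 the dTAG13 points lie on the DMSO side and the OE points on the EV side.

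Among the genes that rose, 14 of 30 (46.7%) lay on chromosome 6, which holds 541 of the tested genes (4.66%). All 14 fell within 2 stretches where neighbouring genes shifted together. The stretches were placed by the differences themselves, as runs where the median of 9 neighbouring genes passed 0.4, so their medians partly follow from that choice and are given as a description. The other 495 genes of the chromosome had a median of -0.02, and 0 of them were called higher.

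The first stretch, chr6:65042583-67535796, held 8 tested genes with a median of 0.94, and all 8 read higher with DMSO. In order along the chromosome they included Smarcad1, Mad2l1, Gng12, Gadd45a, Serbp1 and Il12rb2. Mad2l1, a spindle checkpoint gene, read 77.9 and 67.2 with DMSO and 32.1 and 38.3 in EV and rose by 1.02 (SE 0.14, adjusted p = 0.0123). Gadd45a, a stress-induced growth arrest gene, read 47.5 and 43.1 against 19.5 and 21.9 and rose by 1.09 (SE 0.17, adjusted p = 0.0254). Il12rb2, a cytokine receptor subunit gene, read 2.46 and 2.48 against 0.111 and 0.172 and rose by 1.61 (SE 0.18, adjusted p = 0.00497). Serbp1, an RNA-binding protein gene, was at 54.8 and 65.1 against 26.8 and 33.5 and was not called (adjusted p = 0.357). Just before the stretch, 5 genes stood at -0.32 to -0.11, and the 5 after it (Eif2ak3, Thnsl2, Krcc1, Rmnd5a and Chmp3) at -0.01 to 0.46.

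In this first stretch the EV libraries of both days were the lowest, and day 2 OE lay between EV and DMSO. The median deviation of its genes from their mean over all libraries was -0.66 and -0.45 in day 2 EV and -0.99 and -0.60 in day 6 EV. It was -0.06 and -0.12 in day 2 OE, 0.57 and 0.41 with DMSO, 0.55 and 0.15 with dTAG13, and 0.37 and 0.20 in day 6 OE. Mad2l1 was likewise lowest in the EV libraries of both days, but its day 2 OE libraries, at 86.1 and 79.2 FPKM, lay above DMSO. Il12rb2 was lowest in the EV libraries as well, but its day 2 OE libraries, at 0.271 and 0.224, lay near EV and far below DMSO.

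The second stretch, chr6:87887814-97149182, held 38 tested genes with a median of 0.86. Of these, 36 read higher with DMSO and 11 were called; without the first dTAG13 library 30 were. The 10 highest in level were, in order, Hmces, Rab7, Rpn1, Ruvbl1, Sec61a1, Mcm2, Chchd6, Chchd4, Lsm3 and Trh. Mcm2, a subunit of the replicative helicase, read 321 and 296 against 159 and 149 and rose by 0.996 (SE 0.12, adjusted p = 0.0104). Rpn1, of the oligosaccharyltransferase, read 94.8 and 92.9 against 47.4 and 46.1 (0.99, adjusted p = 0.0104), and Rab7, a late endosome GTPase, 78.7 and 78.9 against 34.7 and 39.1 (1.08, adjusted p = 0.0108). The ratios of group means in FPKM were 2.001 for Mcm2, 2.01 for Rpn1 and 2.14 for Rab7. Lsm3, Ruvbl1 and Sec61a1 differed by a smaller ratio, and Trh, Suclg2 and Gata2 by a larger one, as their values below show.

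Smaller rises stood beside them, except that Chchd6 rose by 1.18. Lsm3, an RNA processing factor, read 274 and 270 against 163 and 158 (0.76, adjusted p = 0.00562), Ruvbl1, a chromatin remodelling ATPase, 280 and 291 against 168 and 172 (0.74, adjusted p = 0.0202), and Sec61a1, of the protein translocation channel, 118 and 108 against 72.6 and 67.5 (0.68, adjusted p = 0.029). Hmces, a DNA repair factor, at 285 and 295 against 158 and 161, Chchd4, a mitochondrial import factor, at 140 and 127 against 69.8 and 84.0, and Chchd6, of the mitochondrial inner membrane, at 98.2 and 87.9 against 36.4 and 44.9, were separated but not called. These genes differ in known function and are neighbours on the chromosome.

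Several genes of the second stretch ranked among the strongest rises. Trh, the thyrotropin-releasing hormone gene, read 387 and 332 with DMSO and 135 and 133 in EV (1.41, SE 0.17, adjusted p = 0.00855). Unlike most of the stretch, Trh was also high in day 2 OE, at 296 and 316. Suclg2, a subunit of succinyl-CoA ligase, read 47.3 and 43.2 against 13.7 and 18.6 (1.44, adjusted p = 0.0243). Zxdc, a zinc finger gene, read 5.21 and 5.87 against 1.76 and 1.34 (1.36, adjusted p = 0.0433), and Tpra1, a membrane protein gene, 13.3 and 12.4 against 4.90 and 4.12 (1.33, adjusted p = 0.0104). Gata2, a transcription factor of trophoblast and blood, read 13.4 and 9.004 against 3.42 and 2.28 (1.66, SE 0.26, adjusted p = 0.029).

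Here the DMSO and dTAG13 libraries were the ones apart. The median deviation was 0.59 and 0.58 with DMSO and 0.67 and 0.38 with dTAG13, while all 8 EV and OE libraries lay between -0.31 and -0.11. On either side the shift ended within a few genes: Nfu1, Gfpt1, Aplf, Isy1 and Cnbp before it had a median of -0.06, and Tmf1, Uba3, Arl6ip5, Frmd4b and Mitf after it a median of 0.04. The 2 genes of the stretch that were lower with DMSO, Fbln2 and Eogt, stood at -0.27 and -0.26. Copy number was not measured.

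**Figure D3:**
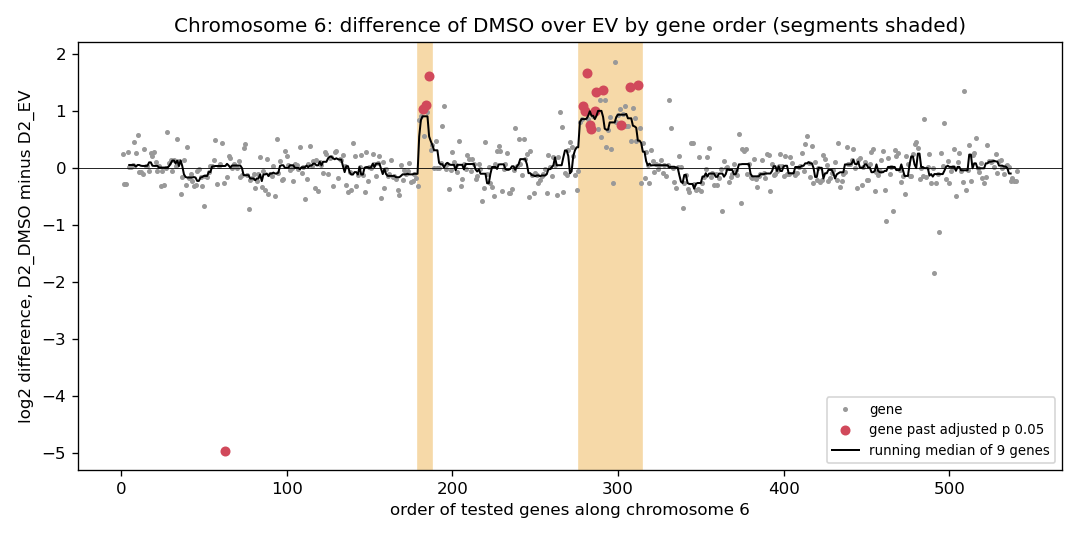
Log2 difference of DMSO over EV for the 541 tested genes of chromosome 6 in their order along it, with called genes in red, a running median of 9 genes as a line and the 2 stretches shaded. The running median stays near 0 outside the shaded parts and reaches about 1 inside them, and Mest is the single red point far below.

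Another pair of runs, of 7 genes each, lay lower with DMSO, both on chromosome 7, and 0 genes were called in any run off chromosome 6. One was the Snrpn block described above. The other, from 8086326 to 11402318, had a median of -0.91 and held 2810047C21Rik1, Zik1 and the Zscan4 copies a, b, c, d and f, genes switched on together in rare cells that resemble the 2-cell embryo. Zscan4c read 1.04 and 4.10 with DMSO and 5.90 and 5.17 in EV, and Zscan4d 1.51 and 4.70 against 5.61 and 5.06. Here the first DMSO library carried most of the difference: its median deviation was -1.88, against -0.62 in the second, -0.13 and -0.28 in day 2 EV, -0.39 and -0.31 in day 2 OE, and 0.59 to 1.53 at day 6. The dTAG13 libraries differed from each other, at 0.55 and -0.82. Zscan4 copies are nearly identical, and reads shared between them make the single values uncertain. A run of 4 genes on chromosome 12 (87816577 to 88274500; BB287469, Gm2016, Gm2022 and Gm5662) had a median of -1.05 and the same library at -1.75.

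The list of 2-cell-like genes, which holds those Zscan4 copies, had a median of -0.89 over 8 tested members. Of these, 7 were lower in both DMSO libraries than in both EV libraries (22.6% of all genes were) and 0 were called. Without the first dTAG13 library 4 were called lower (2.62% of all genes were). The median was -1.32 with the second DMSO library left out and -0.39 with the first left out. The highest members were Eif1a, a translation factor gene, at 124 and 101 with DMSO and 117 and 149 in EV, and Zscan4a, at 0.779 and 5.13 against 9.35 and 6.30. In 14 shorter runs of fewer than 7 genes, that on chromosome 12 included, no gene was called.

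**Figure D4:**
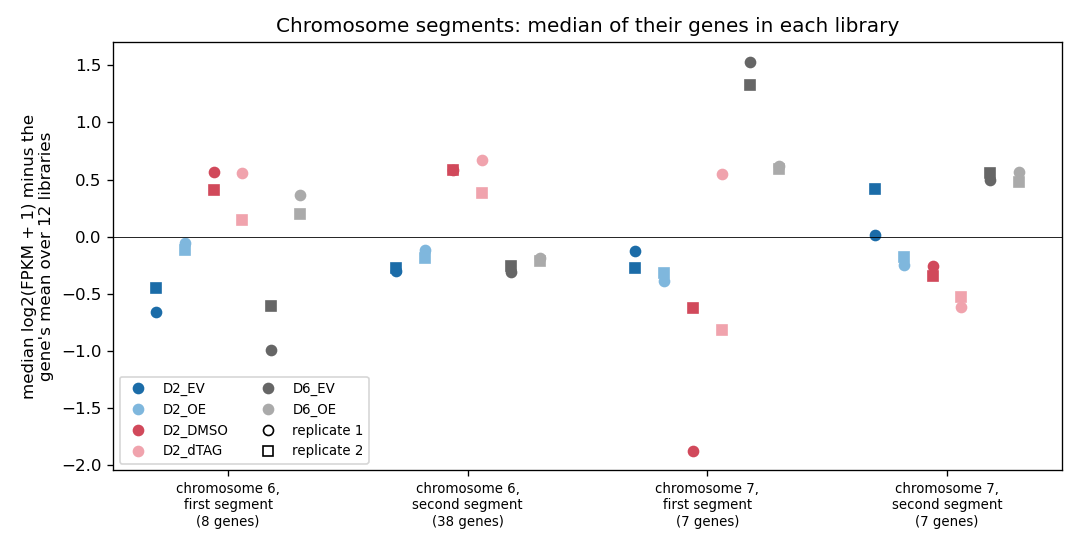
Median deviation of the genes of 4 runs in each of the 12 libraries, as log2(FPKM + 1) minus the gene's mean over all libraries. In the first chromosome 6 run the EV points are lowest, in the second the DMSO and dTAG13 points are highest, and in the first chromosome 7 run the first DMSO library stands lowest at -1.88.

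None of the 8 defining germ cell genes was called. Of 19 tested germ cell specification genes, Tex10 alone was called, the median was 0.03, and the summed level was 11161 and 10090 FPKM with DMSO and 9861 and 9950 in EV. Most of that sum came from members other than the 8 defining genes. Prdm1 read 7.19 and 6.42 against 5.80 and 6.83, Prdm14 25.5 and 22.6 against 21.6 and 19.3, and Tfap2c 72.5 and 58.9 against 74.8 and 87.2. Nanos3, a germ cell RNA-binding protein, was at 55.2 and 50.006 against 37.8 and 53.6, Dppa3, a maternal and germ cell factor, at 42.4 and 31.6 against 28.6 and 27.1, and Dnd1 at 11.8 and 12.6 against 17.5 and 14.2. Kit read 15.6 and 12.8 against 18.2 and 17.3, and Alpl, the gene of tissue-nonspecific alkaline phosphatase, 186 and 162 against 206 and 181. The labelled cell type thus had all 8 of its defining genes above 5 FPKM in both groups. Itgb3, the gene of the sorting marker CD61, was low at 1.29 and 0.734 against 0.822 and 0.915, with a difference of 0.09 (SE 0.29, adjusted p = 0.992).

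Pluripotency genes showed no call. Among 13 naive pluripotency genes 7 were separated higher (both DMSO libraries above both EV libraries) and 4 lower. Over all genes 29.7% were separated higher and 22.6% lower. The naive median was 0.15 (Dppa5a 7719 to 8973 FPKM and Zfp42 697 to 769 across the 4 libraries). Among 12 core pluripotency genes the counts were 3 and 4 and the median 0.03; Pou5f1 read 760 and 675 with DMSO against 961 and 889 in EV, and Utf1 693 and 700 against 835 and 748. The 20 late germ cell genes had 9 separated higher and 3 lower and a median of 0.15, with Rpl10l at 88.4 to 131 and Tdrd12 at 52.3 to 71.5.

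Markers of trophoblast and amnion were the cell type list with most calls. Of 13 tested members 3 were called higher (Gata2, Krt8 and Hand1), against 0.258% of all genes, and 0 lower. The list was chosen with earlier results of these data known, which can favour such a count. With 0.1 added in place of 1 before the log, Hand1 and Gata2 were not called. Among the 13, 8 were separated higher and 1 lower (29.7% and 22.6% of all genes), and the median was 0.34. Their summed level was 127 and 127 FPKM with DMSO against 99.8 and 105 in EV. Hand1, a transcription factor of trophoblast and lateral mesoderm, read 4.16 and 2.88 against 0.387 and 0.0481 and rose by 1.89 (SE 0.24, adjusted p = 0.0104). Krt8, a keratin of simple epithelia, read 38.7 and 35.5 against 19.1 and 15.7 and rose by 1.06 (SE 0.16, adjusted p = 0.0243). Its partner Krt18 read 14.5 and 17.4 against 6.22 and 6.52 and was not called (adjusted p = 0.0803); both keratins have many pseudogenes that can take or give reads.

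The other defining markers were low. Gata3 read 1.47 and 1.16 with DMSO and 1.03 and 0.644 in EV, Krt7 2.91 and 3.02 against 2.19 and 2.18, and Cdx2 was not analysed here. Gata2 also lies in the second chromosome 6 stretch, where 36 of 38 genes read higher with DMSO. Whether its place there bears on its rise was not tested. In the dTAG13 libraries Hand1 read 7.94 and 10.7 and Krt8 96.2 and 76.2, above DMSO, while day 2 OE read 0.403 and 0.0823 for Hand1 and 21.4 and 17.7 for Krt8, near EV. Fewer cells of a type and less RNA per cell cannot be told apart in bulk libraries, and the part of such cells in these differences was not tested.

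The same genes were called in related lists. Hand1 was the 1 called member of 10 primitive streak and mesoderm genes (median -0.05), Gata2 the 1 of 14 BMP pathway genes (median 0.31), and Krt8 the 1 of 24 simple epithelial and junction genes (median 0.08). In the BMP pathway 8 members were separated higher and 2 lower (29.7% and 22.6% of all genes). Mcm2 was the 1 called of 25 DNA replication genes (median 0.04). Its partners in the helicase were not called. Mcm3 read 274 and 268 against 273 and 262, and Mcm6 267 and 271 against 277 and 274. Mcm2 lies in the second chromosome 6 stretch, and whether that place bears on its rise was not tested.

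Other tissues' markers held no call. Among 6 posterior and Hox genes the median was 0.06, with Cdx1 at 2.69 to 4.59 FPKM and Hoxb7 at 0.271 to 0.965. Among 7 endoderm genes it was 0.13, with Sparc at 60.6 to 89.0 and Lama1 at 4.13 to 6.02, and among 6 neural ectoderm genes -0.19, with Tubb3 at 74.5 to 101 and Otx2 at 2.7 to 4.08. Of 4 endothelial and blood genes 2 were separated each way, against 29.7% of all genes higher and 22.6% lower. Pecam1, an adhesion gene that germ cells and pluripotent cells also express, read 57.9 and 49.3 with DMSO against 31.4 and 32.5. Etv2 read 3.23 and 2.3 against 4.26 and 5.52. The 10 cardiac and muscle genes had a median of 0.02, with Tpm1 at 128 to 155 and Myl9 at 19.4 to 23.9. Just 2 fibroblast and feeder genes were tested, Fn1 at 86.0 to 112 and Col5a1 at 0.510 to 0.856. Among markers too low to be tested, 4 picked after their values were seen were below 1 FPKM in all 4 libraries: Kdr stood at 0.161 to 0.360, Mixl1 at 0.234 to 0.581, Gata6 at 0.0304 to 0.0798 and Col1a1 at 0.0313 to 0.282.

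**Figure D5:**
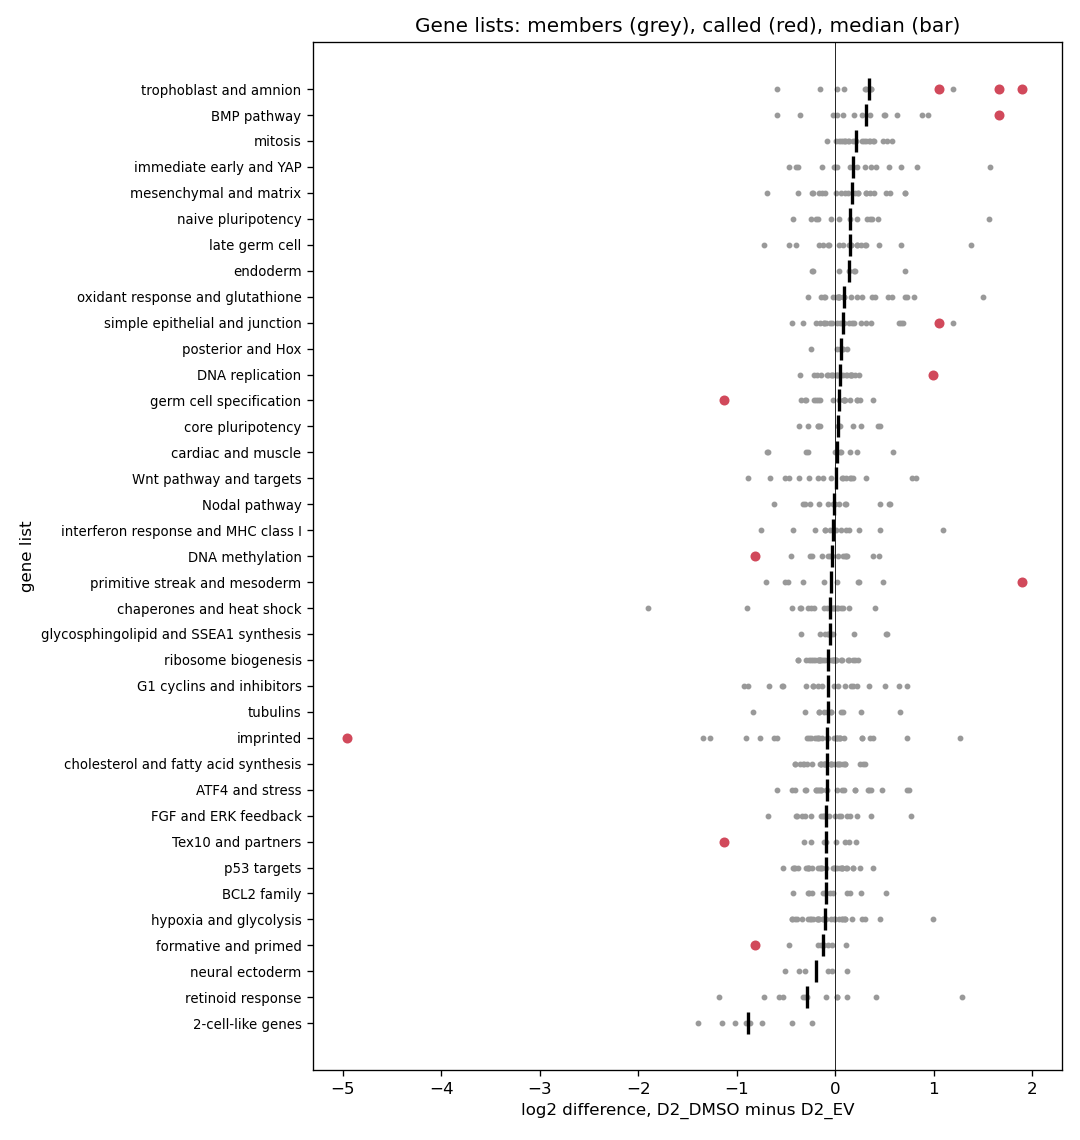
Log2 difference of DMSO over EV for the tested members of each gene list with 5 or more of them, ordered by list median, with called members in red and the median as a bar. Most medians lie within 0.2 of 0, that of the trophoblast and amnion list is at 0.34, and that of the 2-cell-like genes is at -0.89.

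Signalling lists held no call apart from Gata2. The 16 Nodal pathway genes had a median of -0.01, with the co-receptor Tdgf1 at 623 and 604 FPKM with DMSO against 428 and 468 in EV and the inhibitor Lefty1 at 195 to 235. The 18 genes of the Wnt pathway and its targets had a median of 0.01, with Ctnnb1 at 97.6 to 121 and Myc at 43.2 and 54.7 against 70.4 and 65.2. The 18 FGF and ERK feedback genes had 3 separated higher and 7 lower, against 29.7% and 22.6% of all genes, and a median of -0.09. Etv5 read 128 and 110 against 151 and 163, and Fgf4 92.5 and 96.3 against 115 and 109. The 17 immediate early and YAP genes had 9 separated higher and 4 lower, against the same shares of all genes, and a median of 0.18. Ier2 stood at 500 to 577 and Ajuba at 109 to 125. The 13 retinoid response genes had a median of -0.28, with Rarg at 26.4 to 29.3 and Rara at 10.8 to 15.6.

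In the cell cycle, genes of the mitosis list read slightly higher with DMSO and none was called. Mad2l1, called in the first chromosome 6 stretch, was not in that list. Of 22 mitosis genes 14 (63.6%) were separated higher and 0 lower, against 29.7% and 22.6% of all genes, the median was 0.20, and 0 were called. Without the first dTAG13 library 3 were called higher, where 5.42% of all genes were, and 0 lower. The most abundant, Cdc20 and Ube2c, overlapped between the groups, at 559 and 507 against 524 and 475 and at 531 and 422 against 506 and 500. The 20 G1 cyclins and inhibitors had 5 separated higher and 9 lower and a median of -0.08; Cdk4 read 992 and 899 against 850 and 842, and Ccne1 322 and 320 against 363 and 391. The 29 p53 targets had a median of -0.10, with Bax at 416 to 456 and Trp53 at 310 to 393, and the 13 BCL2 family genes, which share Bax, one of -0.10, with Bid at 64.9 to 70.5. The 13 tubulins had a median of -0.08, with Tuba1b at 611 to 804 and Tubb4b at 452 to 540.

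Medians of the stress and metabolism lists lay between -0.11 and 0.09, though the separated members of some lists leaned to one side. The 24 oxidant response and glutathione genes had 13 (54.2%) separated higher and 2 lower, against 29.7% and 22.6% of all genes, and a median of 0.09. Without the first dTAG13 library 7 of them were called higher, where 5.42% of all genes were. Their most abundant members, Gpx1 at 1893 to 2215 FPKM and Prdx1 at 1605 to 1802, overlapped. The 22 chaperone and heat shock genes had 1 separated higher (4.5%) and 10 lower (45.5%) and a median of -0.05, with Hspb1 at 779 to 1039 and Hspe1 at 875 to 976. Without the first dTAG13 library 4 of these 22 were called lower, where 2.62% of all genes were, and 0 higher. The 24 ATF4 and stress genes stood at -0.09, with Asns at 250 and 234 against 185 and 200 and Gars at 183 to 208. The 30 hypoxia and glycolysis genes stood at -0.11, with Eno1 at 1538 to 1914 and Ldha at 806 to 900. Medians were -0.09 for 29 cholesterol and fatty acid synthesis genes, with Acly at 243 to 295 and Fdps at 220 to 249, and -0.08 for 29 ribosome biogenesis genes, with Npm1 at 1937 to 2335 and Nhp2 at 538 to 562.

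Surface and matrix lists complete the account. The 22 mesenchymal and matrix genes had 10 separated higher and 3 lower (29.7% and 22.6% of all genes) and a median of 0.17, with Spp1 at 585 and 506 with DMSO against 409 and 419 in EV and Lgals1 at 140 and 141 against 110 and 117. The 15 interferon response and MHC class I genes had a median of -0.02, with Ifitm2 at 875 to 917 and Tapbp at 13.4 to 15.9. The 10 genes of glycosphingolipid and SSEA1 synthesis, which build the other sorting marker, had a median of -0.06, with Gcnt2 at 16.4 to 19.1 and B4galt1 at 15.4 to 17.2. In all, 29 of the 39 lists held no called gene.

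The remaining genes that rose had no shared list or place. Plin2, a lipid droplet coat protein, read 31.1 and 27.3 against 10.7 and 11.5 and rose by 1.32 (SE 0.16, adjusted p = 0.00855). H1f0, a linker histone of slowly dividing cells, read 44.2 and 47.2 against 19.8 and 23.0 (1.06, adjusted p = 0.0104). Ndufb4, a subunit of respiratory complex I, read 358 and 296 against 184 and 129 (1.07, adjusted p = 0.0332), and it was low in day 6 EV too, at 181 and 189, while both OE groups read 297 to 353. Nedd4, a ubiquitin ligase, read 242 and 233 against 122 and 135 (0.88, adjusted p = 0.0115), again with day 6 EV low at 112 and 118 and OE at 235 to 305. Apoe, a lipid carrier, was the most abundant gene called, at 2427 and 2360.2 against 1500.4 and 1444 (0.70, adjusted p = 0.0123). Among other rises, Rsrp1 read 152 and 139 against 86.3 and 91.1 (0.71). Atp6v0d1, a proton pump subunit gene, read 84.3 and 78.5 against 44.99 and 51.4 (0.75), and Coch 24.6 and 25.1 against 11.6 and 11.3 (1.05). Mdk, a secreted growth factor gene, stood at 578 and 568 against 359 and 385. The rest of the genes that rose were Tbrg1, D1Pas1 and 1700019D03Rik. An Hba-a1 row, 1 of the repeated symbols of the table and a gene with near copies, read 2.32 and 2.48 against 0 and 0.456 (1.49, adjusted p = 0.0348).

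The called genes were then set beside libraries outside the 4 compared, which did help set the spread of the test. All contrasts share that fitted spread, so a gene of low spread is more easily called in several, which favours overlapping calls. dTAG13 over OE at day 2 shares none of the 4 libraries, though it too sets cells given a treatment against cells with none named. Of the 30 genes that rose, 20 were called in the same direction there (9.19% of all genes were called higher) and 1, Mad2l1, in the other. Of the 9 that fell, 6 were called lower (18.2% of all genes were) and 1, Pisd-ps1, higher. Mest stood at -4.26 in that comparison, Tex10 at -3.23, Gdf1 at -2.64, Plin2 at 2.53, Txnip at 2.36 and Krt8 at 2.08. Tex10 is the gene under study, so its place in these counts may reflect how the groups were made, which was not tested. Ndufb4 at -0.13, Nedd4 at -0.30 and Cd200r2 at -0.02, for which the EV libraries stood apart, were not called there.

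The same division showed in single libraries. All 4 DMSO and dTAG13 libraries lay above all 8 EV and OE libraries for 15 of the 30 genes that rose (2.26% of all tested genes did so) and below them for 4 of the 9 that fell, Mest, Tex10, Klk8 and Gdf1 (3.47% of all). For 6 of the 30, Gadd45a, Il12rb2, Mad2l1, Ndufb4, Nedd4 and Rab7, all 4 EV libraries of both days lay below all other libraries (0.543% of all), and for Cd200r2 above them (0.422% of all). These counts are over genes that were called for DMSO against EV, which favours both patterns.

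Development over time was compared in the OE libraries, which lie outside the 4 compared but share the fitted spread. In day 6 OE over day 2 OE, 9 of the 30 genes that rose were called higher (17.6% of all genes were) and 7 lower (14.8% of all genes were). Of the 9 that fell, 5 were called lower and 1 higher. Txnip stood at 2.40 and Plin2 at 1.61 in that comparison, Dnmt3b at -2.66 and Aprt at -1.28, each in the direction it had with DMSO over EV. Trh stood at -3.70 and Ruvbl1 at -1.28, the opposite direction. The genes separating DMSO from EV thus did not all change as they did between day 2 and day 6.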

How the data were processed

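Poly(A) RNA-seq of 12 libraries was taken from the deposited table, which gives FPKM by the authors with 1 added. The added 1 was inferred from the digits (7 or more digits in 90.1% of values between 1.1 and 2, and in 0% from 2 to 10) and was subtracted. Per the submitters' processing notes, FastQC 0.10.1, Trim Galore 0.6.3, cutadapt, STAR 2.7.6a, Cufflinks 2.2.1 and mm10 were used. Depth is unknown, so the precision of low values is too; summed FPKM ran from 550230 to 673435 per library. Groups followed the labels. Positions came by symbol from GENCODE M21 (12457 genes) or RefSeq GRCm38.p6 (456); 42 did not match.

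Genes with FPKM of 1 or more in 2 libraries (12059, of which 11610 autosomal) entered a limma model (version 3.58.1, R 4.3.3) of log2(FPKM + 1) with 6 groups and a trended prior, adjusted over all genes fitted. The fit was tested on simulated data. Runs of neighbouring genes and lists were described without a test. Genes were named by a rule: Tex10 and Itgb3; up to 12 called genes per direction by size with separated groups, a mean of 5 FPKM or more and a named gene model; up to 4 called members of each list, or else its 2 most abundant; and the most abundant genes of each run. Other genes named, such as further called genes, partners and neighbours, were picked after their values were seen. Members and lists were chosen with earlier results of these data known. Alternatives covered the pseudocount, filter, scaling, replicate block, libraries and genes in the fit, prior trend, weights and threshold. Python 3.11.15, pandas 2.3.3, numpy 2.4.6 and matplotlib 3.10.9 were used. Some genes of the regions described are not reported here.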

Additional observations from a re-analysis of the deposited data

How the results depend on the processing

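The count of 39 called genes depended most on which libraries set the spread. It was 933 without the first dTAG13 library, 554 with sample quality weights, 180 with the 4 libraries alone and 3 with the 8 day 2 libraries alone. It was 72 after quantile normalization, 23 without the genes of chromosome runs (fewer genes tested) and 22 with an absolute difference of 1 or more required as well; except where stated, the cause was not tested. Leaving out 1 DMSO or EV library gave 2 to 7: 7 without D2_EV replicate 1, 3 without D2_EV replicate 2, 2 without D2_DMSO replicate 1 and 3 without D2_DMSO replicate 2. All 39 genes kept their sign in these 4 fits. The count lay between 29 and 58 with another pseudocount, low-value filter, median-ratio scaling, no prior trend or autosomal genes alone. Hand1, 1 of the 3 trophoblast and amnion calls, moved from 1.89 to 3.73 at pseudocount 0.1 and to 0.70 at pseudocount 5, and neither Hand1 nor Gata2 was called at 0.1. Itgb3 turned from 0.09 to -0.11 without D2_DMSO replicate 1 and was 0.29 without D2_DMSO replicate 2. List medians moved by more than the spread between library pairs in 59 of 666 cases and changed sign in 28. Replicate numbers did not pair the libraries: deviations of same-numbered libraries had a correlation of -0.04 across genes, and with the replicate block 31 genes were called, 26 higher and 5 lower.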

Other observations

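Some genes outside the naming rule stood apart between DMSO and EV without being called in the fit of all 12 libraries, and were picked after their values were seen. All were called without the first dTAG13 library unless stated. D-type cyclin genes, which drive entry into S phase, were lower with DMSO: Ccnd1 read 13.2 and 11.3 FPKM against 24.3 and 22.7 (adjusted p = 0.0515 in the full fit, 0.000953 without that library), Ccnd2 0.942 and 1.73 against 3.19 and 3.60, and Ccnd3 254 and 251 against 376 and 361. Hspa1b, an inducible heat shock protein gene with a near-identical copy in Hspa1a, read 2.38 and 2.04 against 9.90 and 12.1. Genes of the antioxidant response read higher, with Nqo1 at 79.4 and 72.6 against 41.7 and 45.1 and the metallothionein Mt1 at 908 and 827 against 479 and 568. Crabp1, a retinoic acid carrier gene, read 3.76 and 3.09 against 7.96 and 10.2, while the retinoid-responsive Meis2 read 3.63 and 3.95 against 0.827 and 1.13.

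Between the 2 DMSO libraries 66 genes (0.568%) differed by 1 or more on the log2 scale, against 50 (0.431%) between the EV libraries. Klf2, a naive pluripotency factor gene, read 43.5 and 121 with DMSO against 20.9 and 27.6 in EV. Jund, an AP-1 component, read 2.48 and 12.1 against 1.17 and 1.38 and missed the threshold without that library as well (adjusted p = 0.0516). Gclm, a glutathione synthesis gene, read 8.92 and 25.0 against 3.59 and 6.04. In each of these 3 genes the second DMSO library was the higher, and both DMSO libraries exceeded both EV libraries.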
